A study of Mus musculus with 2 samples.

Results

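The MiT/TFE transcription factors and the lysosomal nutrient-sensing genes that control them were compared between 2 populations of retinal cells. These were sorted by a CD11c reporter from mice at postnatal day 5. The 10 genes were taken by name from the deposited count table, which listed 13549 genes: the factors *Tfeb*, *Tfe3*, *Mitf* and *Tfec*, the Rag GTPases *Rraga*, *Rragc* and *Rragd*, the folliculin complex genes *Flcn* and *Fnip1*, and the lysosomal channel gene *Mcoln1*. All 10 had a row, and all 10 had at least 20 reads over both libraries. All animals had the genotype CD11c-Cre-gfp;Rosa-TDTom. In this cross the promoter of CD11c (integrin alpha X, encoded by *Itgax*) drives Cre and GFP, so that GFP marks current promoter use, and Cre switches on the TdTomato reporter for good. The Cd11c-active library came from 4041 cells with GFP and TdTomato, and the Cd11c-lineage library from 5441 cells with TdTomato and without GFP. The cells came from 8 retinas, 4 of them female and 4 male, and the labels do not tie a retina to a library. The reporter marks promoter use and names no cell type by itself, so any cell that had used the promoter could enter either gate. Each group gave 1 library, so no difference reported here has a replicate check, and every interval compares these 2 libraries and not the 2 conditions.

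MiT/TFE proteins are basic helix-loop-helix leucine zipper factors that bind short E-box sequences near lysosomal and autophagy genes. When amino acids are plentiful, Rag GTPases on the lysosome recruit both mTORC1 and these factors, mTORC1 phosphorylates the factors, and they are held in the cytosol. Folliculin with its partner FNIP1 acts on the Rag heterodimer and is needed for that step, while calcium released through the channel TRPML1 (*Mcoln1*) activates calcineurin, which removes the phosphates so that the factors enter the nucleus. Microglia digest dying neurons in lysosomes, and in many cell types the factors are controlled by their location and phosphorylation, which RNA counts do not show.

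The libraries held 12943998 (Cd11c-active) and 13402625 (Cd11c-lineage) reads. All 8 microglial markers, among them *Csf1r*, *Cx3cr1*, *P2ry12*, *Tmem119* and *Trem2*, had at least 1000 reads, and none was past 2-fold. *Itgax* itself had 2409 and 1698 reads. Markers of other cell types had unequal reads in the 2 libraries. The 8 endothelial markers summed to 7974 reads in the Cd11c-active library and 1035 in the other, and the 5 pericyte markers to 775 and 0. Border macrophage markers, of which 4 of 6 had a row, summed to 262 and 1582. Retinal neuron markers, of which 8 of 10 had a row, summed to 1376 and 2867. For this sum an interval widened as described below (log2 ratio -0.87, -1.78 to 0.09) included 0. Of the 8, 7 had ratios below 0, and *Rbpms* went the other way (325 and 126 reads). A value that is low in such a bulk library can mean fewer cells of a type or less RNA per cell, which cannot be told apart.

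Ratios are Cd11c-active over Cd11c-lineage, on the log2 scale, of reads plus 0.5 after TMM scaling of library sizes. Scaling to library totals instead lowers every ratio by 0.14. Each ratio has a 95% counting interval (exact Clopper-Pearson), which covers counting error only. The pair of libraries differed by far more than counting error: among 1978 genes with at least 800 and under 1600 reads, the variance of the ratio was 88.5 times the counting variance. A second, widened interval is therefore given from the reads divided by 88.5. This factor was 105 among genes with at least 3200 and under 6400 reads and 154 from 6400 reads on, so widened intervals are too narrow for the most abundant genes.

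Of the 10 genes, 1 (*Rragd*) was at least 2-fold higher in Cd11c-active and 0 were at least 2-fold higher in Cd11c-lineage. Among the 13037 genes with at least 20 reads, 23.3% were past 2-fold towards Cd11c-active, 21.6% were past it towards Cd11c-lineage, and among the 4619 with at least 1000 reads 9.57% were past 2-fold in either direction. The ratio was above 0 for *Tfeb*, *Rraga*, *Rragd*, *Fnip1* and *Mcoln1* and below 0 for the other 5, and the median was 0.09, beside 0.01 over all genes tested. The counting interval left out 0 for 7 of the 10 genes, where it did so for 86.2% of all genes tested. The widened interval left out 0 for 0 of the 10, against 2.62% of all genes tested. At few reads it cannot leave out 0: *Deptor*, described below, had 333 and 0 reads and an interval from -0.41 with no upper end. For *Rragd* (93 reads), *Tfec* (107) and *Mcoln1* (309) this outcome was thus fixed in advance. Summed over the 10 genes there were 8966 reads (Cd11c-active) and 10702 (Cd11c-lineage), a log2 ratio of -0.07 (widened interval -0.47 to 0.32).

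**Figure D1:**
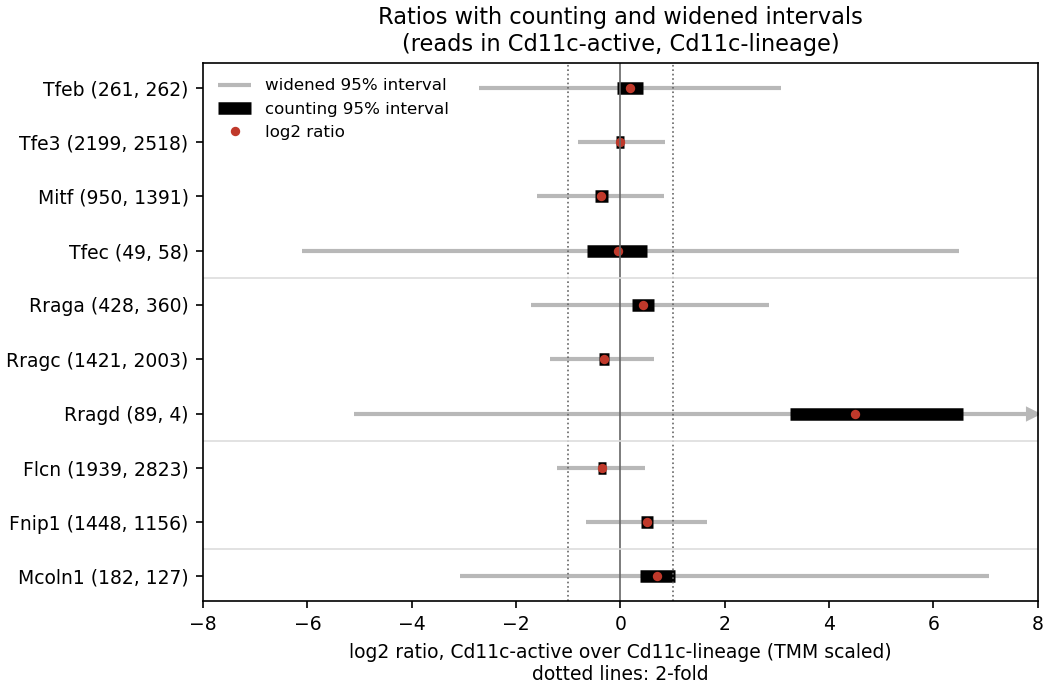
Log2 ratio of Cd11c-active over Cd11c-lineage for each of the 10 genes (red points), with the 95% counting interval (black) and the widened interval (grey), dotted lines at 2-fold, and the reads in each library beside the name. Every grey bar crosses 0, as it must at the reads of Rragd, Tfec and Mcoln1. Rragd, with 89 and 4 reads, is the gene past 2-fold.

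The promoters of the 10 genes were read for the letters that MiT/TFE factors bind, because several of these genes are themselves known targets of the factors. Sequences are from RefSeq (GRCm38.p6) and were matched by symbol, with windows from 250 bases before to 50 after each start site. The E-box CACGTG, which reads the same on both strands, occurred in 3 of the 10 genes: in *Mcoln1* at a pair of places, beginning 71 and 45 bases before the start site, and in *Rragc* (112 before) and *Fnip1* (75 before). It occurred in 8.09% of all 27025 genes with a window and in 11.8% of the 9873 of them listed in the count table. The longer form TCACGTGA, which contains the E-box, was in *Mcoln1* alone of the 10 and in 1.13% of all genes, or 2.25% of those in the count table. CATGTG, searched on both strands and with no overlap with CACGTG, was in 0 of the 10 and in 15.9% of all genes, or 10.5% of those in the count table. The 250 upstream bases, on the plus strand in each case and 5′ to 3′, are shown for the 3 genes that hold CACGTG (capitals) and for *Rragd*, the gene past 2-fold, which holds none. They lie at chr8:3500269-3500518 for *Mcoln1*, chr4:123917183-123917432 for *Rragc*, chr11:54437929-54438178 for *Fnip1* and chr4:32982748-32982997 for *Rragd*.
Mcoln1: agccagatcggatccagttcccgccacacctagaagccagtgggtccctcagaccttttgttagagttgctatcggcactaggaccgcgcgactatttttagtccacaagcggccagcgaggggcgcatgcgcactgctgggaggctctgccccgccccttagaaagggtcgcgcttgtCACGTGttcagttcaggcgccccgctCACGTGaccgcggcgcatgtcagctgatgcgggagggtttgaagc
Rragc: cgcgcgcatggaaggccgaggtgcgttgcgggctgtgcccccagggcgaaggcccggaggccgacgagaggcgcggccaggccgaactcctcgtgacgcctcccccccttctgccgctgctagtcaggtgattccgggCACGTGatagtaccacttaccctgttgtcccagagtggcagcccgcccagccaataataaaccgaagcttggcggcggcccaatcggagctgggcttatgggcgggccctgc
Fnip1: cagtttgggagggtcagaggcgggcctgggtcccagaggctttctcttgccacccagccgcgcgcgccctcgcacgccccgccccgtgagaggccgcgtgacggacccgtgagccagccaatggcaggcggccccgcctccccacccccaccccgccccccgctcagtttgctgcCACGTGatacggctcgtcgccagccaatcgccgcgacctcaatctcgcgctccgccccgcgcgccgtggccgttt
Rragd: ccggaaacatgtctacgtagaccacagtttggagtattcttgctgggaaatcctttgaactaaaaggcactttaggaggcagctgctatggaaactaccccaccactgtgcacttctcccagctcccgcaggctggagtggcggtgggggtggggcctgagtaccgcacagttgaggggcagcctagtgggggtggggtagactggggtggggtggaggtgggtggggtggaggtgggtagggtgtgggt
The 3 genes with these letters did not share a direction: the ratios were 0.70 for *Mcoln1*, 0.51 for *Fnip1* and -0.31 for *Rragc*. A match is a description of the letters and not a binding site, and binding was not measured in these cells.

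Among the 4 transcription factors, *Tfe3* (ENSMUSG00000000134), a broadly expressed member, had 2199 reads in the Cd11c-active library against 2518 in the Cd11c-lineage library, which is 178 and 179 CPM (reads scaled to library size, with values in this order throughout). Its ratio was -0.01 (counting interval -0.09 to 0.07; widened -0.82 to 0.85). *Mitf* (ENSMUSG00000035158), known as the master factor of pigment cells and also active in osteoclasts and mast cells, had 950 and 1391 reads, or 76.9 and 99.0 CPM. The Cd11c-lineage library was thus the higher of the 2, with a ratio of -0.36 (counting -0.48 to -0.24; widened -1.61 to 0.84). Of 10 markers of retinal pigment epithelium and melanocytes, cell types of the eye that express *Mitf*, 3 had a row: *Pmel* with 0 and 10 reads, *Dct* with 0 and 7 and *Rlbp1*, which Muller glia share, with 94 and 0. The part of such cells in the *Mitf* reads was not tested.

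*Tfeb* (ENSMUSG00000023990), the best-studied activator of lysosome genes, had 261 and 262 reads, or 21.1 and 18.6 CPM. Its ratio of 0.18 (counting -0.07 to 0.43; widened -2.71 to 3.09) had a counting interval that included 0, and it was -0.33 once ratios were corrected for the length and GC content of transcripts. *Tfec* (ENSMUSG00000029553), a member largely restricted to macrophages, was the least abundant factor per transcript length, with 49 and 58 reads, or 3.97 and 4.13 CPM. Its ratio of -0.05 had a counting interval from -0.64 to 0.52, and the same correction also turned the signs of *Tfec* (to 0.03) and *Tfe3* (to 0.01). *Tfec* had 107 reads in all, and among the 500 genes nearest to that total 52.0% were at 0 in at least 1 library. The 4 factors together had 3459 and 4229 reads, a log2 ratio of -0.10 (widened -0.76 to 0.53).

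Levels of different genes were compared per transcript length, as RPKM, which divides CPM by the length in kilobases of the longest annotated transcript. Of the summed level of the 4 factors, *Tfe3* made up 52.0% in Cd11c-active and 49.0% in Cd11c-lineage. *Mitf* made up 29.1% and 35.1%, *Tfeb* 16.7% and 13.8%, and *Tfec* 2.17% and 2.11%. The order Tfe3, Mitf, Tfeb, Tfec was thus the same in both libraries. *Tfe3* had 28.1 and 28.3 RPKM, which was 3.12 and 3.56 times the *Tfeb* level of 9.03 and 7.96. Widened intervals of *Tfe3* (18.3 to 41.8 in Cd11c-active) and *Tfeb* (1.89 to 26.8) overlapped, as did those of *Tfe3* and *Mitf* (8.07 to 28.9). The interval of *Tfe3* lay above that of *Tfec* (0.0536 to 11.8). With the median length of coding transcripts in place of the longest, an alternative added after the data were seen, *Tfeb* (38.4 RPKM) and *Mitf* (36.1) changed places in Cd11c-active, while *Tfe3* stayed highest and *Tfec* lowest of the 4 in both libraries. These medians include many short annotated transcripts.

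**Figure D2:**
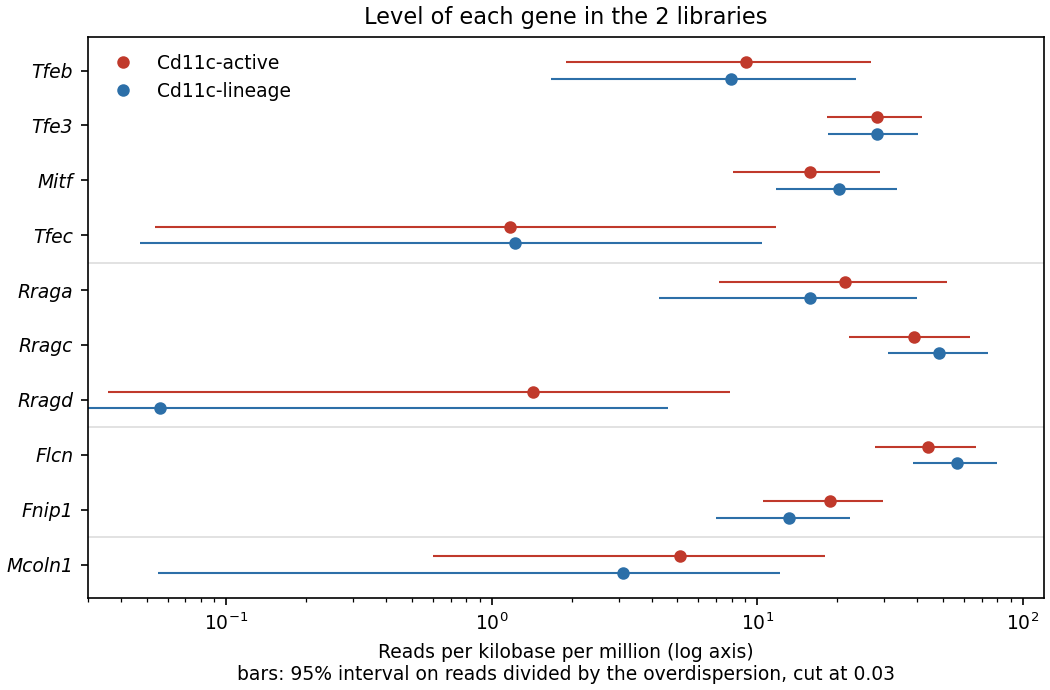
Level of each gene in RPKM (CPM per kilobase of transcript, log axis) in Cd11c-active (red) and Cd11c-lineage (blue), with bars for the 95% Poisson interval on reads divided by 88.5. Flcn, Rragc and Tfe3 lead in both libraries, Tfec and Rragd are lowest, and the 2 bars of each gene overlap.

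Among the Rag GTPases, which work as a dimer of RagA or RagB with RagC or RagD, *Rraga* (ENSMUSG00000070934), encoding RagA, had 428 and 360 reads, or 34.7 and 25.6 CPM. Its ratio was 0.44 (counting 0.23 to 0.64; widened -1.71 to 2.84), and 0.24 once corrected for transcript length and GC. *Rragc* (ENSMUSG00000028646), encoding RagC, had 1421 and 2003 reads, or 115 and 143 CPM. Its ratio was -0.31 (counting -0.41 to -0.21; widened -1.36 to 0.65). *Rraga* was thus the higher in Cd11c-active and *Rragc* in Cd11c-lineage, both by less than 1.5-fold. GENCODE M21 lists 1 gene with exons that overlap *Rragc* on the opposite strand, *4930535I16Rik*, and whether the authors counted by strand is not given in the sources used here. *Rragb*, the RagB gene, had no row in the table used here and was not analysed here.

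*Rragd* (ENSMUSG00000028278), encoding RagD, is known as a gene that MiT/TFE factors switch on, and its product favours mTORC1 recruitment. Its reads numbered 89 in the Cd11c-active library and only 4 in the other, at 7.21 and 0.285 CPM. The ratio was 4.50 (counting 3.26 to 6.57), and 4.36 under library totals. The authors' deposited table lists *Rragd* at 4.48 on the log2 scale. For the other members that table follows library totals and not TMM, so 4.48 and 4.50 are not on the same scale. The widened interval ran from -5.10 with no upper end, since the 89 and 4 reads became 1 and 0 after division. Differences of this size were common at this depth: of the 500 genes nearest in reads (83 to 105 over both libraries), 143 (28.6%) had a ratio at or above that of *Rragd*, and 58.8% had 0 reads in either library. Among all genes with at least 50 and under 200 reads, 81.2% were past 2-fold in either direction. *Rragd* was higher in the library that also held more endothelial reads (7974 against 1035) and pericyte reads (775 against 0), and the part of those cells in its reads was not tested. RagC was the main partner by RNA in both libraries: *Rragc* made up 96.5% of the summed per-length level of the 2 genes in Cd11c-active and 99.9% in Cd11c-lineage.

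The folliculin complex gave opposite signs. *Flcn* (ENSMUSG00000032633), the tumour suppressor whose product activates RagC and RagD as a GTPase-activating protein, had 1939 and 2823 reads, or 157 and 201 CPM, and was the most abundant of the 10 genes per length (44.0 and 56.3 RPKM). Its ratio was -0.36 (counting -0.44 to -0.27; widened -1.21 to 0.47). *Fnip1* (ENSMUSG00000035992), encoding its binding partner, had 1448 and 1156 reads, or 117 and 82.3 CPM. Its ratio was 0.51 (counting 0.40 to 0.62; widened -0.66 to 1.66), and 72 of the 500 genes nearest in reads (14.4%) had a ratio at or above it. Corrected for transcript length and GC, the *Fnip1* ratio was 0.73, and under library totals it was 0.38. The *Flcn* ratio was -0.51 and -0.49 in these settings. *Fnip2*, the paralog of *Fnip1*, had 2001 and 2257 reads, with its ratio at 0.01 (widened -0.82 to 0.94). *Flcn* and *Fnip1* together had 3387 and 3979 reads, a ratio of -0.05 (widened -0.72 to 0.60).

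*Mcoln1* (ENSMUSG00000004567), encoding the channel TRPML1, had 182 and 127 reads, or 14.7 and 9.04 CPM. It was higher in Cd11c-active by 0.70 (counting 0.37 to 1.04; widened -3.08 to 7.07). Of the 500 genes nearest in reads, 160 (32.0%) had a ratio at or above it and 56.6% were past 2-fold. With the correction for transcript length and GC the *Mcoln1* ratio was 0.61. Its paralog *Mcoln2* had 125 reads in the Cd11c-active library and 0 in the other (widened from -5.10 with no upper end). Among genes with at least 50 and under 200 reads 81.2% were past 2-fold in either direction.

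Across all 10 genes, the order by RPKM in Cd11c-active was *Flcn* (44.0), *Rragc* (39.0), *Tfe3* (28.1), *Rraga* (21.4), *Fnip1* (18.7), *Mitf* (15.8), *Tfeb* (9.03), *Mcoln1* (5.10), *Rragd* (1.43) and *Tfec* (1.17). The median gene tested had 6.44 RPKM in this library. In Cd11c-lineage *Mitf* (20.3) stood above *Rraga* (15.8) and *Fnip1* (13.2), and *Tfec* (1.22) above *Rragd* (0.0563), while the other places were the same. With median lengths *Tfe3* led in Cd11c-active, and *Tfeb* and *Mcoln1* stood above *Rraga* in both. Neighbours in either order by longest transcript had overlapping widened intervals. The interval of *Flcn* in Cd11c-lineage (38.7 to 79.8) lay above that of *Mitf* (11.8 to 33.5) and of *Fnip1* (6.97 to 22.4).

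**Figure D3:**
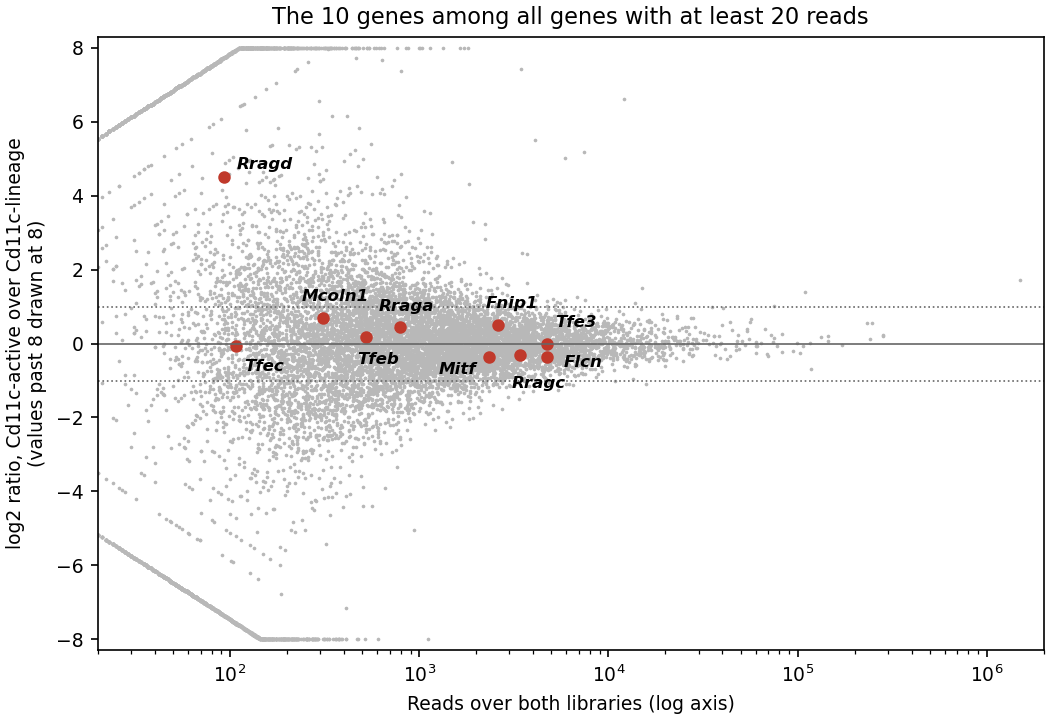
Log2 ratio against reads over both libraries (log axis) for every gene with at least 20 reads (grey), with the 10 genes in red and dotted lines at 2-fold. The grey cloud widens towards low reads, where Rragd and Tfec lie, and the 5 genes with at least 1000 reads lie between -0.36 and 0.51.

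The rest of the pathway was described from 11 lists holding 62 genes, of which 58 were tested. Of these 58, 9 were past 2-fold towards Cd11c-active and 6 towards Cd11c-lineage, beside 23.3% and 21.6% of all genes. The same shares are the background for the count of each list. The widened interval left out 0 for 0 of the 58, though for those with few reads it could not do so. Among the 31 with at least 1000 reads, 3 were past 2-fold (background 9.57%): *Seh1l*, *Prkaa1* and *Pikfyve*. The median ratio of the 58 was 0.11, also with genes at 0 reads set to the floor of 3 reads, beside 0.01 over all genes tested. Ratios were above 0 for 36 of the 58 (62.1%), beside 50.2% of all genes tested. With libraries scaled to their totals, which lowers every ratio alike, they were above 0 for 28 and below 0 for 30, or 48.3% above 0 beside 44.6% of all genes.

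The Ragulator scaffold, which anchors Rag GTPases to the lysosome, was listed with the arginine sensor *Slc38a9* and the lysosome-positioning gene *Borcs6*. *Lamtor1* had 1465 and 1156 reads (ratio 0.53, widened -0.55 to 1.74) and *Lamtor2* 675 and 676 (0.18). Of the 7 genes, *Borcs6* (307 and 81 reads, 2.10) was past 2-fold in Cd11c-active and *Lamtor5* (162 and 389, -1.07) in Cd11c-lineage, both under 1000 reads. In mTORC1, the kinase complex that phosphorylates the factors, *Rptor* (raptor) had 2467 and 3630 reads (-0.37, widened -1.11 to 0.36) and *Mtor*, the kinase, 813 and 809 (0.19). Of its 5 genes, *Deptor*, an inhibitor, had 333 and 0 reads (widened from -0.41 with no upper end) and *Mlst8* 175 and 52 (widened -3.08 to 7.07). *Rheb*, the GTPase that activates mTORC1, had 707 and 1135 reads (-0.50), and its inhibitor *Tsc2* 1335 and 1019 (0.58, widened -0.69 to 1.73), with 0 of 4 genes past 2-fold.

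The GATOR complexes set the state of RagA and RagB. In the list of GATOR1, the inhibitory complex, and its anchor KICSTOR, *Depdc5* had 741 and 707 reads (0.25). Of its 6 genes tested, 1 was past 2-fold in each direction: *Nprl3* (357 and 114 reads, 1.83) towards Cd11c-active and *Nprl2*, of the same complex and named after its values were seen, towards Cd11c-lineage (54 and 140 reads). Over all genes 23.3% and 21.6% were past it, and 81.2% in either direction at the depth of *Nprl2*. In GATOR2, *Sec13* had 1112 and 823 reads (0.62) and *Seh1l* 738 and 325 (1.37, widened -0.71 to 3.37). Both proteins are also nucleoporins. Of the 5 GATOR2 genes, 2 were past 2-fold towards Cd11c-active and 1 towards Cd11c-lineage (all genes 23.3% and 21.6%). Beside *Seh1l* these were *Wdr59* (57 and 0 reads) and *Wdr24* (0 and 56), named after their values were seen, at a depth where 81.2% of genes were past 2-fold. Among 7 amino acid sensors, *Bmt2* (SAMTOR, a methionine sensor) had 795 and 866 reads (0.06), *Lars* (leucyl-tRNA synthetase) 721 and 1279 (-0.64), and *Castor1*, an arginine sensor, was past 2-fold with 217 and 103 (1.26).

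On the side that releases the factors, all 4 calcineurin genes had ratios below 0, as did 6488 of all 13037 genes tested. *Ppp3ca*, a catalytic subunit, had 1380 and 2475 reads (-0.66, widened -1.61 to 0.32), and *Ppp3r1*, a regulatory subunit, 1005 and 1370 (-0.26, widened -1.53 to 0.96). *Ppp3cc*, named after its values were seen, had 0 and 119 reads, at a depth where 81.2% of genes were past 2-fold. The 4 genes summed to 3268 and 5210 reads, a ratio of -0.49 (widened -1.12 to 0.13). *Mcoln1*, which lies upstream of calcineurin, had the other sign, at 0.70. Retinal neuron markers also summed to more reads in Cd11c-lineage (2867 against 1376), with a widened interval that included 0 (-1.78 to 0.09). The part of neurons in the calcineurin reads was not tested. The 14-3-3 proteins, which hold phosphorylated factors in the cytosol, were the most abundant of these lists, with *Ywhae* at 8073 and 10280 reads (-0.16, widened -0.58 to 0.24) and *Ywhaz* at 6648 and 8694 (-0.20, widened -0.65 to 0.25), and 0 of 6 were past 2-fold, beside 9.57% of all genes with at least 1000 reads.

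AMPK, the energy sensor that acts against mTORC1, had *Prkaa1*, a catalytic subunit, at 803 and 328 reads (1.48, widened -0.48 to 3.51). *Stk11* (LKB1), the kinase upstream of it, had 1148 and 1093 reads (0.26), and *Prkag1* 663 and 516 (0.55). Of the 7 genes of this list, 1 was past 2-fold in each direction (all genes 23.3% and 21.6%), and the gene towards Cd11c-lineage was *Prkaa2* (0 and 58 reads), named after its values were seen, at a depth where 81.2% of genes were past 2-fold. *Pikfyve* makes the lipid that opens TRPML1 and had 747 and 1827 reads, a ratio of -1.10 (widened -2.59 to 0.03). The endolysosomal channel gene *Tpcn1* had 3384 and 2784 reads (0.47, widened -0.24 to 1.21).

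Genes reported to carry the CLEAR element, the extended E-box through which TFEB acts, formed a list of 27, all of which were tested. Of these 27, 19 had ratios above 0 and 8 below, with a median of 0.13 beside 0.01 over all genes. With libraries scaled to their totals, which lowers every ratio alike, the split was 13 and 14 and the median -0.003, beside -0.13 over all genes. With the correction for length and GC they were 15 and 12 and 0.03, beside -0.05 over all genes. The list summed to 436025 and 407763 reads, a ratio of 0.28 (widened 0.22 to 0.34, too narrow at this depth). Library totals lower this ratio by 0.14 as well, and *Ctsd* alone gave 130952 and 100576 of the reads. The sialidase gene *Neu1* (1050 and 381 reads, ratio 1.65) was the 1 gene past 2-fold in Cd11c-active, and 0 were past it in Cd11c-lineage, beside 23.3% and 21.6% of all genes. Of the 27, 25 had at least 1000 reads, a depth at which 9.57% of all genes were past 2-fold. The widened interval left out 0 for 5 of the 27, among them *Psap* (118190 and 122629 reads, ratio 0.13, below 0 under library totals), *Ctsd* (130952 and 100576, 0.57), *Lamp1* (0.50) and *Neu1* (widened 0.05 to 3.86). All 5 were among the 25 with at least 1000 reads, where the share over all genes was 5.56%. With at least 6400 reads, as for *Psap*, *Ctsd* and *Lamp1*, the list had 4 of 11 and all genes 16.8%, and widened intervals are too narrow there. Of the 22 genes of the list with a promoter window, 12 held CACGTG, a share that the choice of the list in part fixes. Their median ratio was 0.17, and that of the other 10 was 0.16.

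Of 8 further reported targets, 3 had a row. *Gpnmb*, a glycoprotein gene that MITF and TFE3 are known to activate, had 289 and 75 reads (2.13, widened -1.87 to 7.49). *Cdkn1a* had 702 and 449 reads (0.83) and *Hif1a* 2689 and 2735 (0.16, widened -0.63 to 0.91).

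**Figure D4:**
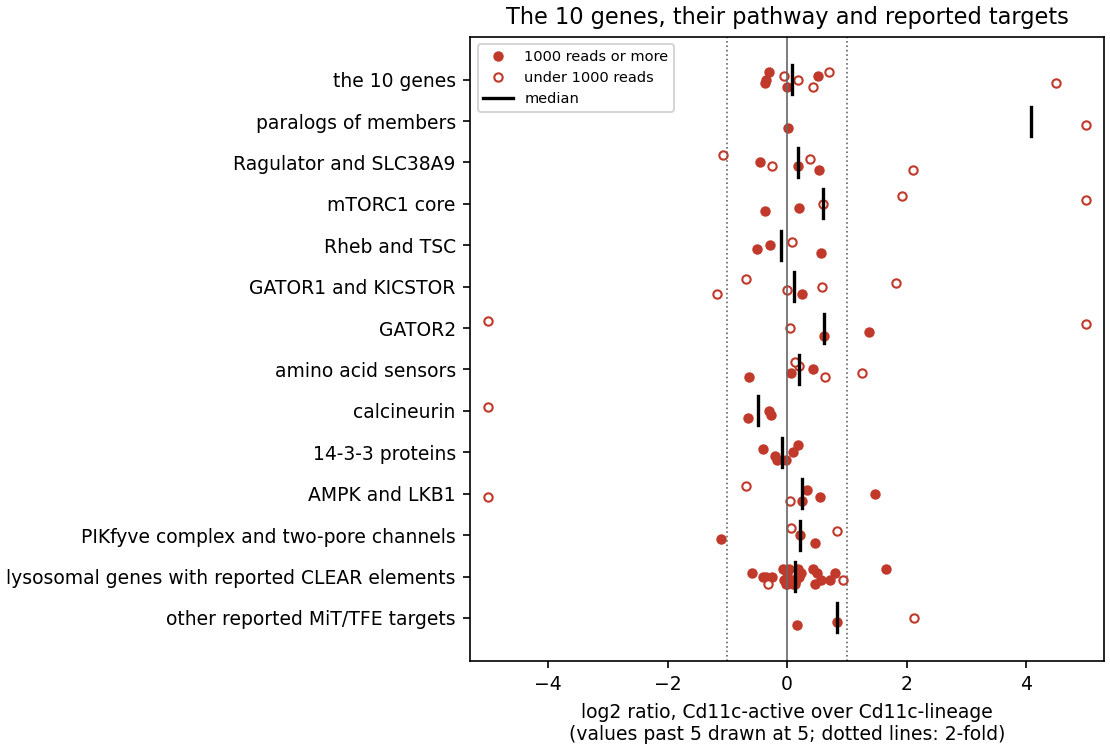
Log2 ratios of the 10 genes, of the other genes of the pathway by list, and of reported targets, with filled points for genes with at least 1000 reads, open points for those under, and a black line at each median. The filled points lie mostly within the dotted 2-fold lines, and most points beyond them are open.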

How the data were processed

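Bulk RNA sequencing of 2 sorted libraries was analysed (1 per group). Per the labels' protocols, ribosomal RNA was depleted and stranded libraries were made. Per the submitters' processing notes, cutadapt 3.5, STAR 2.7.9a, featureCounts 1.6.3, edgeR 4.0.16 and the build GRCm39 were used; the strand setting in counting is not given in the sources used here. The authors deposited raw read counts per gene, with a row total of 6 or more, and a log2 fold change and log2 average CPM, per the file headers. The log2 average was not used.

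Library sizes were scaled with TMM from edgeR 4.0.16 (R 4.3.3). With 1 library per group, 0 residual degrees of freedom remained for edgeR's quasi-likelihood test and DESeq2, so values and intervals are given without p-values. A gene was tested, against a fold of 2, when its 2 libraries summed to 20 reads or more. Overdispersion set the spread of log2 ratios (a variance from their interquartile range) against that expected from counting at equal expression, in genes with at least 800 and under 1600 reads and at least 1 in each library. It takes the typical gene as unchanged. Counting intervals cover counting error only, since PCR copies of a molecule cannot be recognised without molecular identifiers. The procedure was tested on simulated data.

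Transcript lengths came from GENCODE M21 (GRCm38), matched by gene identifier for 99.6% of rows, and coordinates are given only for the RefSeq promoter windows (GRCm38.p6), because the builds differ. Computation used Python 3.11.15, numpy 2.4.6, scipy 1.17.1, pandas 2.3.3 and matplotlib 3.10.9. The 10 genes and all lists were chosen with earlier results of these data known. Beside the 10, the text names from each list the 2 genes with the most reads and up to 4 past 2-fold with at least 200 reads; genes named outside this rule were chosen after their values were seen. Some genes of the lists count in their totals but are not reported here by name. Alternatives were scaling by library totals, by DESeq2 size factors or without ribosomal and mitochondrial RNA, no filter or a minimum of 100 reads, a prior count of 2, a correction of ratios for transcript length and GC (a quadratic fit), a local overdispersion and, added after the data were seen, the median length of coding transcripts.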

Additional observations from a re-analysis of the deposited data

How the results depend on the processing

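The counts of the 10 genes past 2-fold were 1 and 0 under each scaling, without a filter, with a prior count of 2 reads and with the length and GC correction. With a minimum of 100 reads *Rragd*, at 93, was no longer tested, and the count higher in Cd11c-active was 0. No member's widened interval left out 0 under any scaling, filter or the overdispersion of the 500 genes nearest in reads. For *Rragd*, *Tfec* and *Mcoln1* no split of their reads could have done so. The CLEAR median was -0.0030 under library totals and 0.033 with that correction. The medians of all genes tested were -0.13 under library totals, which lower every ratio alike, and -0.05 with the correction. The share of *Tfe3* in the summed level of the 4 factors was 42.6% and 41.0% with median coding transcript lengths, an alternative chosen after seeing the data. The ratio of *Rragd* lay between 4.11 and 4.59 over its alternatives, and that of *Mitf* between -0.50 and -0.23. No paired analysis was possible because each group has 1 library. For the same reason no library could be left out. Depth limits *Rragd*, *Tfec*, *Mcoln1*, *Tfeb* and *Rraga* most, since at 93 to 788 reads the widened intervals reach past 2-fold on both sides of 0.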
